A study of Mus musculus with 3 samples.

Results

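The genes followed here are 9 signals of the chemokine and inflammatory cytokine systems, namely the chemokines *Cxcl1*, *Cxcl2*, *Cxcl10*, *Cxcl12* and *Cx3cl1*, the chemokine-scavenging receptor *Ackr3*, and the cytokines *Il1b*, *Il6* and *Il11*. They were taken by name, and all 9 had a row among the 9781 gene rows analysed. The study profiled single cells of the developing mouse prostate with a droplet-based assay that counts unique molecular identifiers (UMIs), one per captured transcript. There were 3 libraries, one each from the male urogenital sinus at embryonic day E18.5, from prostate at postnatal day P14 and from prostate at P35, and each group therefore had 1 sample. The labels call all 3 tissues normal and give no genotype. Mice of the study were of a mixed background, C57BL/6 with 129S1/SvImJ, and many carried a Cre-dependent fluorescent reporter. The table holds an *EGFP* row, and how many animals entered a library is not given in the sources used here.

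Cells carried barcode endings 1, 2 or 3, and no label ties an ending to an age. They are called barcode sets 1, 2 and 3, no comparison between ages was made, and 1 library per set allows no test between conditions. The number of cells that the study's text gives for one of the ages equals that of one barcode set, whereas the numbers for the other ages match none, so this was not used to assign ages. Set 1 held 766 cells with a median of 19357 UMIs, set 2 held 5350 cells with a median of 1738, and set 3 held 8360 cells with a median of 1801 after 97 cells with under 200 detected genes had been left out. The 3 sets shared 14 barcodes that occurred in more than 1 of them. Levels are UMIs per 1000000 of all UMIs of the cells (CPM), summed over the cells of a class within a set. The total of each cell was recovered from the deposited values, and the gene rows hold 49.4% to 52.7% of these totals in each set. Every interval is an exact 95% interval for counting error and holds no spread between animals.

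Chemokines are small secreted proteins that guide leukocytes along gradients through G-protein-coupled receptors. CXCL1 and CXCL2 attract neutrophils, CXCL10 is an interferon-inducible attractant of T cells, CXCL12 retains and guides CXCR4-bearing cells and is scavenged by ACKR3, and CX3CL1 is made as a membrane-anchored adhesive protein. IL-1β is a principal inflammatory product of activated myeloid cells, and IL-6 and IL-11 are cytokines of stromal and immune cells that signal through the shared receptor subunit gp130. Several of these genes are textbook targets of NF-κB and are also known to be switched on in cells during enzymatic tissue dissociation, which these tissues underwent with collagenase and TrypLE.

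*Cxcl1* and *Cxcl2* lie next to each other on chromosome 5 (GRCm38.p6), *Cxcl1* at chr5:90891245-90893121 and *Cxcl2* at chr5:90903899-90905938, with 10777 bases between the end of one and the start of the other. *Il6* lies on the same chromosome at chr5:30013114-30019975. An NF-κB-type motif, spelled GGGA, then any base, then TTTCC, was searched on both strands of the 300 bases from 250 before to 50 after each RefSeq transcription start, and it was found in 135 of 32817 promoters (0.411%). It was found in the promoters of 3 of the 9 genes, *Cxcl1*, *Cxcl2* and *Il6*, and always on the strand of the gene. The 150 bases before the start of these genes (RefSeq, GRCm38.p6, plus strand) are shown because these are the members that hold the motif, and the capitals mark the motif.
Cxcl1 (chr5:90891095-90891244): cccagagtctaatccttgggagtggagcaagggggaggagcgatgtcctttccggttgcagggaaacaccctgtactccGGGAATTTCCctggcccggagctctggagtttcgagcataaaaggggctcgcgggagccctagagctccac
Cxcl2 (chr5:90903749-90903898): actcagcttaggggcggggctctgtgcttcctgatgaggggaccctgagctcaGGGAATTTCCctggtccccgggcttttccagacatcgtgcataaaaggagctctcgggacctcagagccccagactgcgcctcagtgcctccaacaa
Il6 (chr5:30012964-30013113): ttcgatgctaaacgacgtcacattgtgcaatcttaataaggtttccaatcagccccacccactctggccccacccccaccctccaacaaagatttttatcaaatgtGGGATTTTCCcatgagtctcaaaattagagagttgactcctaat
The first base of the motif lies at position -71 from the start in *Cxcl1*, at -97 in *Cxcl2* and at -44 in *Il6*, and the matched letters are the same in the neighbouring *Cxcl1* and *Cxcl2*. A match describes letters in this window and is not evidence of binding, nor does a missing match say anything about the other 6 genes.

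Cells were sorted into 15 clusters without the use of the 9 genes, and 12 clusters were named from marker genes. The classes that matter here are epithelium-like cells (123, 1416 and 2689 cells in sets 1, 2 and 3), fibroblast-like cells (170, 1602 and 2582), smooth muscle-like cells (39, 1329 and 1785), pericyte-like cells (12, 28 and 129), leukocyte-like cells (38, 25 and 177) and glia-like cells (21, 189 and 237). The fibroblast-like class is made of 2 clusters, one led by *Dpt* and *Lum* and called here the Dpt-Lum type, the other led by *Fgf21*, *Lamc3* and *Col15a1* and called here the Tcf21-Col15a1 type. The first carried the type markers *Dpt*, *Lum*, *Sfrp2*, *Mfap5* and *Cd34*. It also carried *Rspo3* and *Sult1e1* from the list of the other type, and *Sult1e1* stood ahead of *Lum* among its leading genes. The second carried *Tcf21*, *Col15a1* and *Ifitm1*. At a clustering resolution of 1.0 a fibroblast cluster of 1587 cells led by *Sult1e1* had no type, and 556 cells were typed Dpt-Lum. The Dpt-Lum type made up 147 of the 170 fibroblast-like cells of set 1, whereas the Tcf21-Col15a1 type made up 1470 of the 2582 of set 3, so the class does not hold the same mixture in each set. The fibroblast-like class of set 1 also rested on the integration of the sets, since without it 479 cells of set 1 formed an unnamed cluster of their own and the fibroblast clusters held 1 and 4 of its cells. The leukocyte markers summed to between 3232 and 10797 CPM in leukocyte-like cells and to between 7.78 and 48.9 CPM in fibroblast-like cells, where *Ptprc*, *Cd53* and *Itgb2* were at 0 in all 3 sets. Pericyte markers summed to between 2549 and 3734 CPM in pericyte-like cells and to between 60.4 and 327 CPM in fibroblast-like cells.

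Most of the 9 genes had higher levels in stromal or leukocyte-like cells than in epithelium. *Cxcl1*, *Cxcl10*, *Cxcl12*, *Ackr3*, *Il6* and *Il11* were each more than 2-fold higher in fibroblast-like than in epithelium-like cells in every set, *Cx3cl1* was more than 2-fold lower in every set, *Cxcl2* was near parity in sets 2 and 3, and *Il1b* was almost wholly a leukocyte transcript. The exception among the alternatives was *Il11* in set 1, whose log2 ratio was 0.69, under 2-fold, when the unnamed cluster 6 was counted as fibroblast-like. Of the members with at least 10 UMIs, 7 of 8 were at least 2-fold higher in fibroblast-like cells in set 1, 6 of 8 in set 2 and 6 of 9 in set 3, against 21.1%, 20.2% and 22.9% of all genes with at least 10 UMIs. The one lower member in each set was *Cx3cl1*, where 22.1%, 16.0% and 21.4% of all genes were at least 2-fold lower. The median log2 ratio of the members was 2.74, 2.21 and 3.09 in sets 1, 2 and 3, and that of all genes was -0.07, 0.05 and -0.13.

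**Figure D1:**
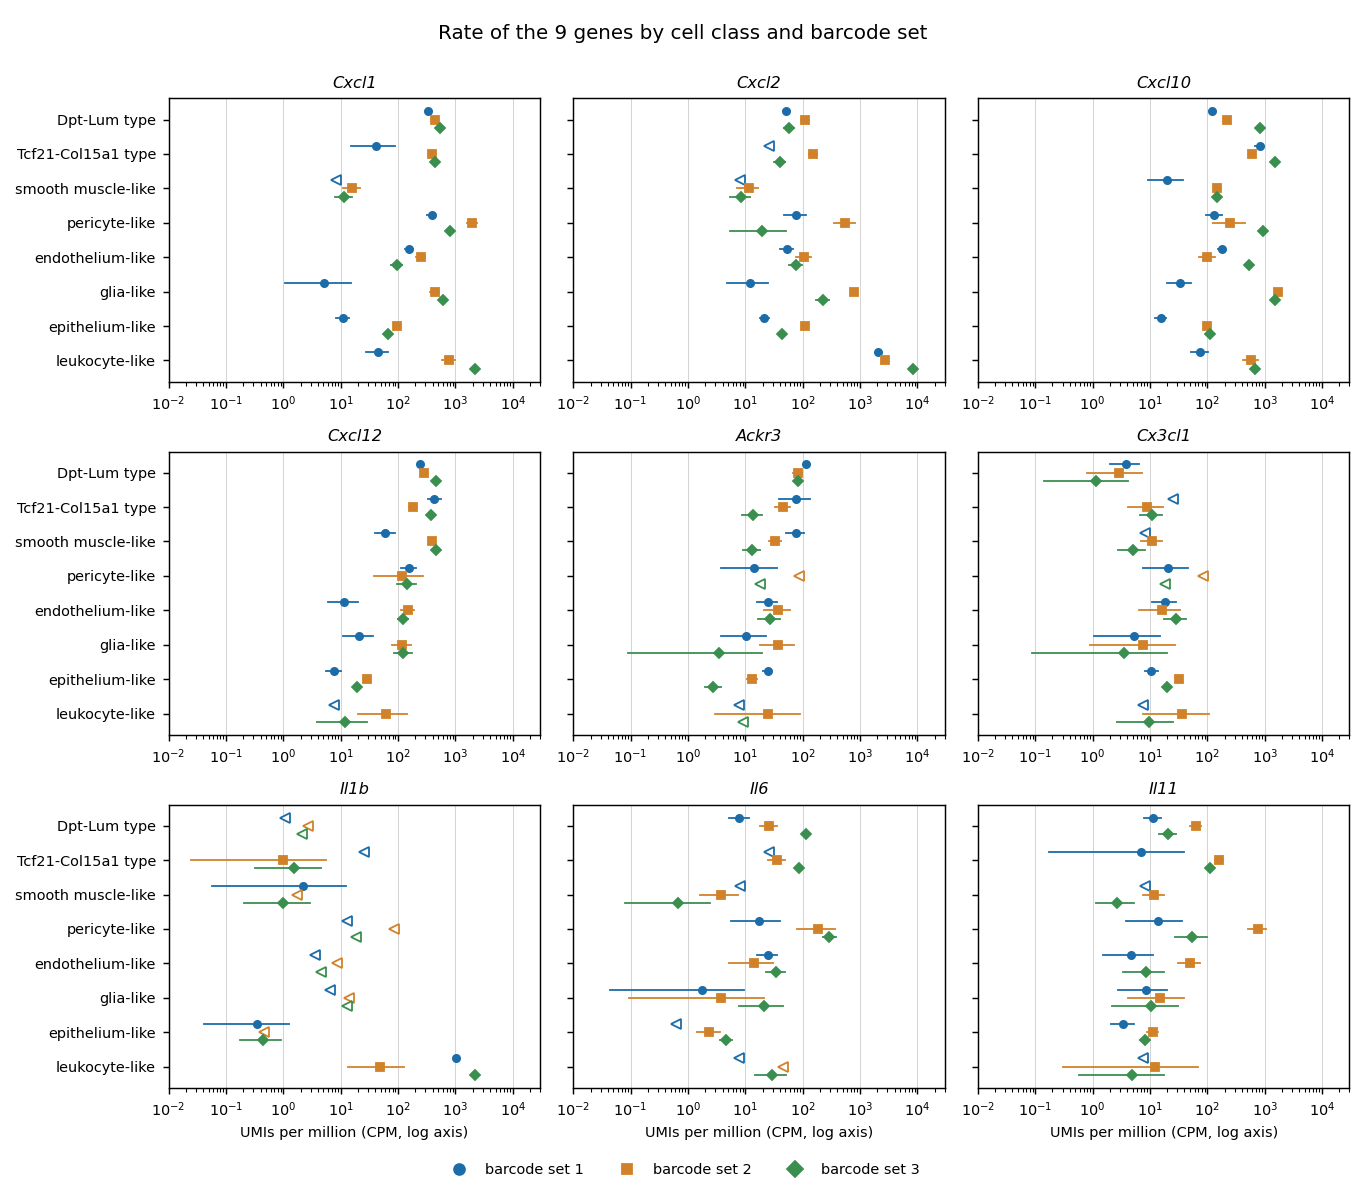
Level of each of the 9 genes (CPM, log axis) in 8 cell classes, one colour for each barcode set, with bars for exact 95% Poisson intervals. Open left-pointing triangles mark classes with 0 UMIs and stand at the upper limit of the interval. *Il1b* stands high in leukocyte-like cells alone, *Cxcl12* in fibroblast-like and smooth muscle-like cells, and *Cx3cl1* is lower in fibroblast-like cells than in epithelium-like ones.

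In fibroblast-like cells the neutrophil attractant *Cxcl1* was measured at 325 CPM (307 to 344) for set 1, 414 CPM (388 to 440.1) for set 2 and 486 CPM (463 to 509) for set 3. In epithelium-like cells it stood at 10.9, 96.7 and 67.1 CPM. The log2 ratio of fibroblast-like to epithelium-like cells was therefore 4.89 (4.53 to 5.28), 2.10 (1.96 to 2.23) and 2.86 (2.74 to 2.97), and the 3 sets shared the direction. The size in set 1 depended on the processing, from 3.01 after thinning to 5.78 without the highest doublet scores. It also differed between epithelial clusters, because set 1 held 109 CPM in the 14 cells of epithelial cluster 3 and 2.91 CPM in the 103 cells of cluster 4. Shares of cells with a UMI were read after each cell had been thinned to 900 UMIs, and cells with fewer were left out: 201 of 1602 and 379 of 2582 fibroblast-like, 9 of 1416 and 38 of 2689 epithelium-like, 64 of 189 and 128 of 237 glia-like and 8 of 28 and 24 of 129 pericyte-like cells in sets 2 and 3. A cell without a UMI at this depth may still express the gene, and a UMI may come from free RNA in the droplet, so each share is set beside that of a class with a low level. Of the thinned cells, 16.3% of fibroblast-like cells of set 2 and 18.9% of set 3 had a *Cxcl1* UMI, against 1.80% and 0.829% of smooth muscle-like cells, the class with the lowest level, and 6.75% and 4.49% of epithelium-like cells. Without thinning, fibroblast-like shares were 21.2% and 23.4% and epithelium-like shares 25.8% and 17.4%, but the latter cells' median depth was higher (4082.5 against 1229 UMIs in set 2 and 3458 against 1320 in set 3). The order of the classes in set 2 thus turned once depth was made equal, and the thinned shares followed the order of the CPM values. In set 1 a single fibroblast-like cell held 197 *Cxcl1* UMIs, 16.9% of the class total.

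The class with the highest *Cxcl1* level was not the same in all sets. Pericyte-like cells came first in set 1 with 388 CPM and Dpt-Lum fibroblasts second with 337 CPM, and their intervals did not separate them. In set 2 pericyte-like cells came first with 1952 CPM, ahead of leukocyte-like cells with 768 CPM. In set 3 the order of these classes turned, with leukocyte-like cells at 2236 CPM and pericyte-like cells at 812 CPM. Smooth muscle-like cells were last or tied for last in all 3 sets, at 0, 15.6 and 11.3 CPM.

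*Cxcl2*, the neighbouring gene with the same class of receptor, was a leukocyte transcript first. Leukocyte-like cells held 2035, 2745 and 8339.7 CPM in sets 1, 2 and 3, and the log2 ratio to all other cells was 6.49, 4.74 and 7.61. Fibroblast-like cells held 49.7, 128 and 48.4 CPM, and epithelium-like cells 21.5, 111 and 44.4 CPM. Unlike *Cxcl1*, it did not separate the last pair of classes by as much as 2-fold in sets 2 and 3, where the log2 ratio was 0.20 (0.01 to 0.39) and 0.12 (-0.12 to 0.36). The ratio of 1.21 (0.87 to 1.55) in set 1 rested largely on 1 fibroblast-like cell that held 97 *Cxcl2* UMIs, 54.2% of the class total. It was 0.43 without the highest cell of each class and -0.44 when cells were assigned to classes one by one from their markers rather than by cluster. Glia-like cells were a further site of *Cxcl2*, with 787 CPM in set 2 and 226 CPM in set 3 but 12.1 CPM in set 1.

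*Cxcl10*, the interferon-inducible chemokine at chr5:92346638-92348889, was the member with the most UMIs in the table (14465). Its level in fibroblast-like cells was 147 CPM in set 1, 375 CPM in set 2 and 1187 CPM in set 3, so the sets stood far apart. Epithelium-like cells held 15.4, 97.9 and 113 CPM, and the log2 ratio was 3.25, 1.94 and 3.40. The share of thinned fibroblast-like cells with a UMI was 13.8% in set 2 and 27.5% in set 3, against 6.68% and 5.66% of epithelium-like and 6.96% and 5.33% of smooth muscle-like cells. Glia-like cells had the highest thinned shares of these classes, 40.8% and 32.1%, at 1722 and 1544 CPM, whereas in set 1 they held 32.9 CPM. The 7 fibroblast markers summed to 1637, 6049.9 and 5141 CPM in glia-like cells and to 21761, 16219 and 16369 CPM in fibroblast-like cells, and their part in these values was not tested. The log2 ratio of glia-like to fibroblast-like cells was thus -2.16 in set 1, 2.20 in set 2 and 0.38 in set 3. In set 1 the highest level was in Tcf21-Col15a1 fibroblasts, at 815 CPM, ahead of the unnamed cluster 6 at 304 CPM, a cluster with both fibroblast and smooth muscle markers.

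*Cxcl12* (chr6:117168535-117181368), the ligand of CXCR4, was found in several stromal classes. In set 1 mitotic-led cells came first at 463 CPM and the unnamed cluster 6 held 365, 347 and 476 CPM in sets 1, 2 and 3, with 1659 of the UMIs of set 1. Fibroblast-like cells held 251, 241 and 416 CPM and epithelium-like cells 7.69, 28.2 and 19.5 CPM, giving log2 ratios of 5.03, 3.09 and 4.42. Smooth muscle-like cells also carried it, at 59.7, 388 and 457 CPM, so that in sets 2 and 3 their level exceeded that of fibroblast-like cells by 0.69 and 0.13 on the log2 scale while in set 1 the ratio was -2.07. The thinned shares placed both classes together in set 3, where 26.0% of fibroblast-like and 27.0% of smooth muscle-like cells had a UMI. In set 2 the shares were 18.8% and 26.7%. Of epithelium-like cells, 1.99% and 1.81% had one in sets 2 and 3. Leukocyte-like cells had 0, 5 and 5 UMIs, or 0, 61.0 and 12.1 CPM, which lay below the fibroblast level in each set but above the epithelial level in set 2. Endothelium-like cells held 11.4, 147 and 120.2 CPM. Its receptor *Cxcr4* reached 95.9, 24.4 and 104 CPM among leukocyte-like cells and 14.2, 70.1 and 27.9 CPM in endothelium-like cells, against 3.34, 1.67 and 0.816 CPM in fibroblast-like cells, although the leukocyte value of set 2 rests on 2 UMIs.

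*Ackr3* (chr1:90203980-90215724), which binds and internalises CXCL12 without activating G proteins, had its highest level in Dpt-Lum fibroblasts and was also found outside the fibroblasts. Fibroblast-like cells held 115, 66.2 and 46.8 CPM and epithelium-like cells 24.4, 13.3 and 2.78 CPM, with log2 ratios of 2.23, 2.32 and 4.07. Within the fibroblasts, Dpt-Lum cells held 116, 81.3 and 84.1 CPM and Tcf21-Col15a1 cells 75.9, 45.5 and 13.4 CPM. Dpt-Lum cells thus stood first among all classes in each set, although their interval was apart from that of the next class in set 3 alone. In set 1 mitotic-led cells at 102 CPM, the unnamed cluster 6 at 97.6 CPM and smooth muscle-like cells at 75.1 CPM lay close to them, and cluster 6 held 443 *Ackr3* UMIs against 412 in fibroblast-like cells. Pericyte-like cells had 4 *Ackr3* UMIs in set 1 and 0 in sets 2 and 3. Joint occurrence of ligand and scavenger was not detectable at this depth, as 6.82% of thinned fibroblast-like cells with *Cxcl12* and 4.84% of those without it had an *Ackr3* UMI in set 2, and 2.97% and 3.31% in set 3, with overlapping intervals.

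*Cx3cl1* (chr8:94772180-94782427), the membrane-anchored chemokine, was the one member with a higher level in epithelium-like cells than in fibroblast-like ones in every set. Epithelium-like cells held 10.6, 32.5 and 19.6 CPM and fibroblast-like cells 3.61, 5.41 and 6.25 CPM, giving a log2 ratio of -1.55 (-2.54 to -0.67) for set 1, -2.59 (-3.51 to -1.79) for set 2 and -1.65 (-2.33 to -1.04) for set 3. All 3 epithelial clusters carried it, at 7.59 to 11.3 CPM in set 1, 22.4 to 45.1 CPM in set 2 and 15.7 to 25.7 CPM in set 3. Endothelium-like cells, the other class in which the gene is well known, held 18, 16.4 and 27.9 CPM. Epithelium did not come first in any set, as pericyte-like cells led in set 1 at 20.8 CPM, leukocyte-like cells in set 2 at 36.6 CPM and endothelium-like cells in set 3, but the intervals of neighbouring classes were not apart. The transcript was sparse, with 866 UMIs in the table, and 4.26% and 1.96% of thinned epithelium-like cells of sets 2 and 3 had one, against 0.286% and 0.499% of fibroblast-like cells.

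*Il1b* (chr2:129364569-129371164), the myeloid inflammatory cytokine, was close to exclusive to leukocyte-like cells where it was detected at all. In set 1, 490 UMIs lay in the 38 leukocyte-like cells and 3 in all other cells, a log2 ratio of 12.74 (11.18 to 15.02). In set 3, 912 lay in leukocyte-like cells and 15 elsewhere, a log2 ratio of 11.95 (11.22 to 12.80). Set 2 had 4 UMIs in its 25 leukocyte-like cells and 1 elsewhere, so that its level of 48.8 CPM stood far below the 1022 and 2207 CPM of sets 1 and 3. A single cell carried 297 of the 490 UMIs of set 1 (60.6%), and the log2 ratio there ranged from 7.05 to 12.74 under the alternatives. Pericyte-like, endothelium-like and glia-like cells had 0 UMIs in all 3 sets, and fibroblast-like cells 0, 1 and 3.

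*Il6* and *Il11*, the gp130 cytokines, were sparse stromal transcripts with 793 and 1027 UMIs in all. The level of *Il6* in fibroblast-like cells of sets 1, 2 and 3 was 7.50, 30 and 98.7 CPM, against 0, 2.34 and 4.62 CPM in epithelium-like cells. The log2 ratio was 3.68 (2.93 to 4.49) in set 2 and 4.42 (4.05 to 4.8) in set 3. For set 1, 27 fibroblast UMIs against 0 made the level 14.6-fold higher (log2 3.87) with 0 replaced by a floor of 3 UMIs. The lower limit of the counting interval was 3.47, and the value against the floor was 2.59 with cells classed one by one. After thinning, 2.0% and 6.58% of fibroblast-like cells of sets 2 and 3 had an *Il6* UMI, against 0.313% and 0.118% of smooth muscle-like cells and 0.213% and 0.528% of epithelium-like cells. The endothelial value of set 1, 24.7 CPM, came from a single cell with 24 of its 26 UMIs (92.3%). *Il11* (chr7:4772373-4782907) measured 11.1, 103 and 69.6 CPM among fibroblast-like cells against 3.42, 11.1 and 8.16 CPM among epithelium-like cells, with log2 ratios of 1.70, 3.21 and 3.09. Its highest level was in the pericyte-like cells of set 2, 758 CPM, with 40.0% of thinned cells positive, whereas those of set 3 held 54.5 CPM and 2.86% of them were positive, against 1.25% and 0.237% of smooth muscle-like cells in sets 2 and 3.

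**Figure D2:**
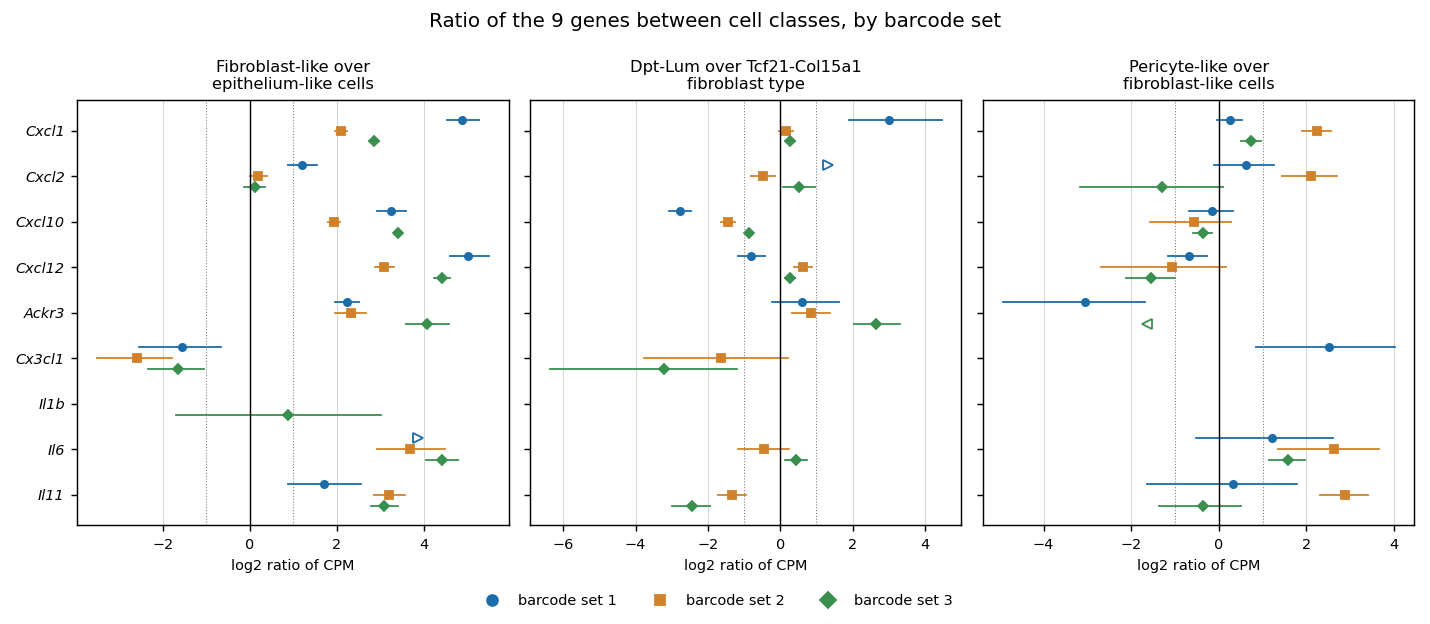
Log2 ratio of the level of each gene between 2 classes (fibroblast-like over epithelium-like, Dpt-Lum over Tcf21-Col15a1 type, pericyte-like over fibroblast-like), one colour for each barcode set, with 95% intervals. Dotted lines mark 2-fold, open triangles a value against a floor of 3 UMIs where one class had 0 UMIs, and values resting on under 10 UMIs are not drawn. In the first panel *Cxcl1*, *Cxcl10*, *Cxcl12*, *Ackr3*, *Il6* and *Il11* lie right of the 2-fold line in all 3 sets and *Cx3cl1* left of it, whereas the other panels differ between sets.

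Between both fibroblast types the members differed less and less uniformly. Of 8 members with at least 10 UMIs, 2 were at least 2-fold higher in Dpt-Lum cells in set 1, 0 in set 2 and 1 in set 3, beside 3.96%, 7.14% and 7.49% of all genes. There were 1, 3 and 2 members at least 2-fold lower, beside 20.8%, 4.88% and 6.23%. The 2 higher members of set 1 were *Cxcl1* (log2 3.02) and *Cxcl2* (log2 1.32 against a floor of 3 UMIs). Both fell under 2-fold with other processing, *Cxcl1* to 0.65 after thinning and *Cxcl2* to 0.20 without the highest cell of each class. *Ackr3* was the member higher in Dpt-Lum cells of set 3, with a log2 ratio of 2.65 (2.04 to 3.31), and it stayed between 2.26 and 3.31 under every alternative that gave a value. *Il11* was the converse case, higher in Tcf21-Col15a1 cells of sets 2 and 3 at 158 and 113 CPM against 62.6 and 20.7 CPM, the log2 ratio being -1.34 (-1.73 to -0.95) in the former and -2.45 (-3.00 to -1.94) in the latter. *Il11* is among the leading genes of the Tcf21-Col15a1 cluster, a rank drawn from the same UMIs, and it was not used in clustering. The *Il11* ratio of set 3 ranged from -3.33 to -1.43 under the alternatives, whereas that of set 2 became 0.17 when only cells with at least 500 genes were clustered. In that clustering the name Tcf21-Col15a1 fell on a cluster led by *Col26a1*, *Tmem119* and *Cldn11*, with *Tcf21* also among its leading genes. Of its 494 cells in set 2, 157 belonged to the Tcf21-Col15a1 cluster described here, 190 to the Dpt-Lum cluster and 62 to the unnamed cluster 6, and of its 473 cells in set 3 these numbers were 236, 168 and 37. The minimum of 500 genes removed 1829 of the 2244 cells of the Tcf21-Col15a1 cluster.

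*Cxcl10* was also higher in the Tcf21-Col15a1 type. It stood at 815, 592 and 1507 CPM there and at 119, 217 and 829.7 CPM in Dpt-Lum cells, so that the log2 ratio was -2.78 (-3.08 to -2.47), -1.45 (-1.65 to -1.24) and -0.86 (-0.95 to -0.77) in turn. The direction was the same in the 3 sets, and the last value is under 2-fold. These ratios depended on how the types were drawn, because set 1 gave 1.46 when cells were assigned one by one, and set 2 gave 1.09 with at least 500 genes per cell. *Cxcl9*, a second interferon-inducible chemokine, stood at 118 and 49.9 CPM in Tcf21-Col15a1 cells of sets 2 and 3 and at 27.3 and 20.7 CPM in Dpt-Lum cells. *Cxcl1* differed by under 2-fold between the types in sets 2 and 3, with log2 ratios of 0.16 and 0.27, but these were 2.21 and 0.99 with at least 500 genes per cell. Its value of 3.02 (1.90 to 4.47) in set 1 set 1163 UMIs against 6, and the 23 Tcf21-Col15a1 cells of that set had a median of 1841 UMIs against 20058 in the Dpt-Lum cells. After thinning the *Cxcl1* ratio of set 1 was 0.65, under 2-fold.

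In pericyte-like cells, the contractile cells that wrap capillaries, *Il6* stood above its fibroblast level in sets 2 and 3. Its level in sets 1, 2 and 3 was 17.3, 184 and 292 CPM, resting on 5, 8 and 59 UMIs, and the log2 ratio was 1.21 (-0.53 to 2.60), 2.62 (1.35 to 3.67) and 1.57 (1.14 to 1.97). The interval of set 1 includes 0, and those of sets 2 and 3 do not, but the ratio of set 3 was 0.87, under 2-fold, with no integration. After thinning, 15.0% and 21.0% of pericyte-like cells of sets 2 and 3 had an *Il6* UMI, against 2.0% and 6.58% of fibroblast-like cells. *Cxcl12* was the reverse, its log2 ratio being -0.69 (-1.15 to -0.26), -1.07 (-2.70 to 0.16) and -1.54 (-2.12 to -1.01). Of 8 members with at least 10 UMIs, 2, 4 and 1 were at least 2-fold higher in pericyte-like cells of sets 1, 2 and 3, beside 15.1%, 25.5% and 23.9% of all genes, and 1, 1 and 3 were at least 2-fold lower, beside 9.07%, 1.87% and 7.30%. Several of these rest on few pericyte UMIs, namely *Il6* on 5, *Cx3cl1* on 6 and *Ackr3* on 4 in set 1, *Cxcl12* on 5 in set 2 and *Cxcl2* on 4 in set 3. The intervals of *Il6* in set 1, *Cxcl12* in set 2 and *Cxcl2* in set 3 include 0. The 4 of set 2 were *Cxcl1*, *Cxcl2*, *Il6* and *Il11*, with log2 ratios of 2.24, 2.11, 2.62 and 2.88 from 28 cells. That of *Cxcl2* was 0.65, under 2-fold, with at least 500 genes per cell. All genes together were shifted in the same direction in that set, with a median log2 ratio of 0.88. Leukocyte markers summed to 3.46, 0 and 14.9 CPM in pericyte-like cells.

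Leukocyte-like cells were then compared with all other cells of their set. Of 9, 8 and 9 members with at least 10 UMIs, 2, 3 and 4 were at least 2-fold higher in leukocyte-like cells of sets 1, 2 and 3, beside 14.3%, 19.1% and 15.5% of all genes. There were 2, 1 and 2 members at least 2-fold lower, beside 19.8%, 1.99% and 13.3%. *Cxcl2* was higher in every set. *Cxcl1* changed sides, with a log2 ratio of -0.98 in set 1 and 2.33 and 4.05 in sets 2 and 3, and *Cxcl10* likewise, with -0.84, 1.62 and 1.13, or -3.28, 1.07 and 0.88 without the highest cell on each side. *Cxcl12* was lower in every set, 24.0-fold lower in set 1 against a floor of 3 UMIs (log2 -4.58, nearer limit of the counting interval -4.29, and -1.44 after thinning) and with log2 ratios of -1.25 and -3.58 in sets 2 and 3.

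The leukocyte-like cells were divided by whether they had a UMI of the complement genes *C1qa*, *C1qb* or *C1qc*, which mark resident macrophages. In set 3 the 95 cells with C1q held 14456 CPM of *Cxcl2* and the 82 cells without it 225 CPM, a log2 ratio of 6.0 (5.56 to 6.49). The difference is visible cell by cell, as 90 of the 95 cells with C1q (94.7%) had a *Cxcl2* UMI and 8 of the 82 without it (9.76%), or 93.5% and 6.58% after thinning. *Cxcl1* was divided in the same way, with 923 UMIs in the cells with C1q and 1 in those without, a log2 ratio of 9.44 (6.96 to 14.75) from the UMIs as counted. *Cxcl10* followed at 1095 and 141 CPM (log2 ratio 2.96). *Il1b* was not divided like this, at 2737 and 1503 CPM (0.86, 0.66 to 1.08), with 41.3% and 28.9% of thinned cells positive. In set 1 the sign of *Cxcl2* was opposite, with 996 CPM in 25 cells with C1q and 4528 CPM in 13 cells without it (log2 ratio -2.19, -2.38 to -1.99). A single cell held 263 UMIs, 26.9% of the 976 *Cxcl2* UMIs of all leukocyte-like cells of set 1. Of these, the cells with C1q held 337 and those without it 639, so the cell weighs more within its own side. In set 2, with 17 and 8 cells, *Cxcl2* stood at 3465 and 367 CPM, a log2 ratio of 3.24. The early-response list described further on summed to 7763 CPM in cells with C1q and 4437 CPM in cells without it in set 3, and its part in these differences was not tested.

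**Figure D3:**
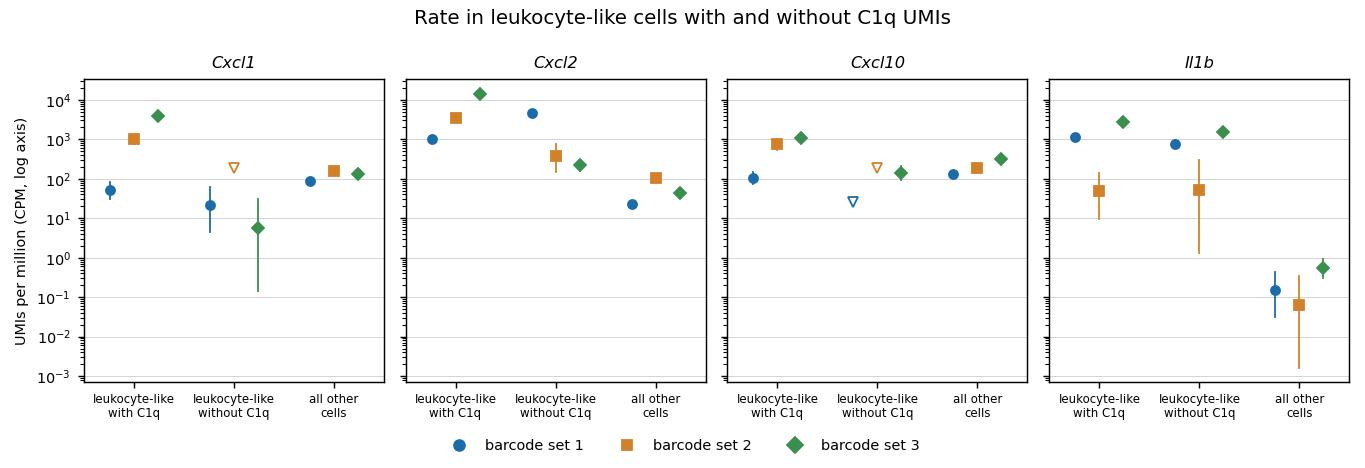
Level (CPM, log axis) of *Cxcl1*, *Cxcl2*, *Cxcl10* and *Il1b* in leukocyte-like cells with C1q, in leukocyte-like cells without C1q and in all other cells, one colour for each barcode set, with exact 95% Poisson bars and open triangles at the upper limit where there were 0 UMIs. In set 3 *Cxcl2* stands at 14456 against 225 CPM on either side of the C1q division, whereas *Il1b* stands at 2737 against 1503 CPM.

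Other genes of the same systems were read from lists of ligands and receptors. *Cxcl3*, a further neutrophil attractant, was a leukocyte transcript with 148, 866 and 663 CPM in leukocyte-like cells and 1.95, 0 and 0 CPM in fibroblast-like cells, and in set 3 all 274 of its leukocyte UMIs lay in cells with C1q. *Il1rn*, the antagonist of IL-1 signalling, reached 85.5, 85.4 and 159.7 CPM among leukocyte-like cells and, outside them, 37.8, 6.16 and 3.92 CPM in epithelium-like cells against 0, 0.833 and 0 CPM in fibroblast-like cells. *Il1r1*, the receptor for IL-1, had the opposite distribution, at 78.7, 148 and 149 CPM in fibroblast-like and 9.74, 11.8 and 13.0 CPM in epithelium-like cells. The ligand *Il1b* was therefore found in leukocyte-like cells and the receptor transcript mainly in stroma, with *Il1r1* at 72.7, 184 and 119 CPM in pericyte-like cells.

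The receptor of IL-11, *Il11ra1*, was likewise stromal, with 113, 57.1 and 147 CPM in fibroblast-like and 12.6, 9.61 and 19.5 CPM in epithelium-like cells. The receptor of IL-6, *Il6ra*, was not, with 11.4, 32.9 and 32.9 CPM in fibroblast-like, 19.8, 33.0 and 47.4 CPM in epithelium-like and 75.1, 73.2 and 48.4 CPM in leukocyte-like cells. Of 19 listed cytokine receptors 12 had a row, and of those with at least 10 UMIs 6 of 9, 7 of 11 and 7 of 11 were at least 2-fold higher in fibroblast-like than epithelium-like cells in sets 1, 2 and 3, beside 21.1%, 20.2% and 22.9% of all genes, and *Il13ra1* in set 3 was the one lower. *Il1r1*, *Il11ra1*, *Il4ra*, *Il13ra2* and *Tnfrsf1a* were so in all 3 sets. The median log2 ratio of the list was 2.82, 2.05 and 2.10. Of 32 other chemokines 13 had a row. At least 2-fold higher in fibroblast-like cells were 3 of 8, 4 of 9 and 4 of 11 with at least 10 UMIs, and 2, 3 and 3 were lower, beside 22.1%, 16.0% and 21.4% of all genes lower. Their median log2 ratio was 0.58, -0.24 and 0.32. *Cxcl13*, a B-cell attractant, was higher in each set at 7.23, 18.3 and 51.1 CPM against 0.171, 0.862 and 2.09 CPM, and *Cxcl15* was lower in each set at 0.556, 0.417 and 0.272 CPM against 135, 6.90 and 52.1 CPM in epithelium-like cells. *Csf1*, the macrophage growth factor, measured 56.4, 192 and 328 CPM among fibroblast-like and 3.08, 24.1 and 9.49 CPM in epithelium-like cells. Its list of other cytokines did not share this direction. With at least 10 UMIs, 1 of 4, 1 of 6 and 2 of 7 were at least 2-fold higher, beside 21.1%, 20.2% and 22.9% of all genes. There were 1, 2 and 2 lower, beside 22.1%, 16.0% and 21.4%, and the median log2 ratio was -0.08, 0.20 and -0.77.

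Whether members shared cells was read in thinned fibroblast-like cells, where every cell had the same 900 UMIs. In set 2, 17.1% (12.5 to 22.6) of cells with *Cxcl1* also had *Cxcl2*, against 2.90% (2.02 to 4.03) of cells without it, and in set 3, 5.05% (3.15 to 7.61) against 1.34% (0.862 to 1.99). *Il6* kept the same company, in 4.82% against 1.45% of cells with and without *Cxcl1* in set 2, and in 13.5% (10.3 to 17.1) against 4.98% (4.02 to 6.09) in set 3. Cells with *Cxcl2* had *Il6* in 9.59% against 1.58% in set 2 and in 31.1% (18.2 to 46.6) against 6.07% (5.10 to 7.16) in set 3. *Cxcl10* was also more frequent in cells with *Cxcl1*, at 24.6% against 11.8% in set 2 and 35.1% against 25.7% in set 3. Set 1 had 19 thinned cells with *Cxcl1*, of which 1 had *Cxcl2*.

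Other inflammatory genes were read in the cells with a member. A list of inflammatory genes without the members, of which 9 of 18 had a row, was higher by 0.56, 0.61 and 0.27 on the log2 scale in cells with *Cxcl1* than in cells without it in sets 1, 2 and 3. It was also higher beside the other members, by 0.20, 0.68 and 0.30 for *Cxcl2*, 0.39, 0.46 and 0.05 for *Cxcl10*, 0.10, 0.81 and 0.42 for *Il6* and 0.06, 0.48 and 0.06 for *Il11*, where the intervals of *Cxcl10* in set 3, *Il6* in set 1 and *Il11* in sets 1 and 3 reach 0. A list of early-response genes of the kind switched on by dissociation, of which 15 of 25 had a row, was higher by 0.19, 0.15 and 0.31 in cells with *Cxcl1*. The same difference was 0.11, 0.23 and 0.09 for *Cxcl10*, higher in every set, but it had no single direction for the others, at -0.11, 0.20 and -0.11 for *Cxcl2*, -0.30, 0.36 and 0.07 for *Il6* and -0.45, 0.18 and -0.17 for *Il11*. Unlike the co-detection, both lists were read without thinning. The median depth was also higher in cells with *Cxcl1*, 26866 against 16018 UMIs in set 1, 1350 against 1202 in set 2 and 1412 against 1290 in set 3. The part of dissociation in the co-detection was not tested.

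**Figure D4:**
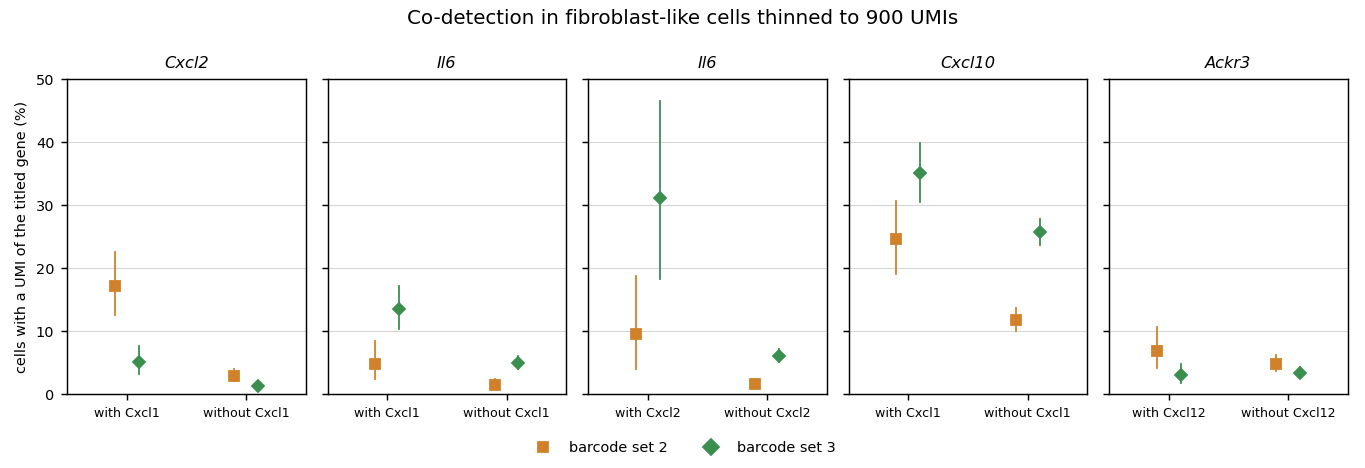
Share (%) of fibroblast-like cells, each thinned to 900 UMIs, that had a UMI of one member among cells with and without a UMI of another, in barcode sets 2 and 3, with exact 95% intervals; set 1 is not drawn because few of its cells had either. For *Cxcl2* and *Il6* among cells with and without *Cxcl1* the shares are 17.1% against 2.90% and 4.82% against 1.45% in set 2, whereas for *Ackr3* among cells with and without *Cxcl12* the intervals overlap.

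The barcode sets themselves differed in member levels within a class, which describes these libraries and not ages. Between sets 3 and 2, fibroblast-like cells had higher *Cxcl10* and *Il6*, by 1.66 and 1.72 on the log2 scale, and lower *Cxcl2* (-1.40), so that 2 of 8 members were at least 2-fold higher and 1 lower, beside 10.2% and 16.4% of all genes. Between sets 1 and 3, *Cxcl10*, *Il6* and *Il11* were lower in set 1, with log2 ratios of -3.02, -3.72 and -2.65, and *Ackr3* was higher (1.29), or 3 and 1 of 8 members beside 11.6% and 27.0%. Between sets 1 and 2, 4 of 8 were at least 2-fold lower in set 1 and 0 higher, beside 11.3% and 21.3%. Of these, *Cxcl10* went from -1.35 to -0.43 with the unnamed cluster 6 counted as fibroblast-like and *Il6* from -2.0 to -0.60 after thinning, both then under 2-fold. The log2 ratio of *Cxcl12* between sets 1 and 2 was 0.06 in these cells. With no integration, which left 1 and 4 cells of set 1 in the fibroblast clusters, it was 1.09, and the ratios between sets 1 and 3 were -1.26 for *Cxcl10* and 3.50 for *Ackr3*.

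Epithelium-like cells as a class also had lower levels in set 1. Against set 2, 7 of 8 members were at least 2-fold lower and 0 higher, beside 12.6% and 25.3% of all genes, with *Cxcl1* at -3.14, and against set 3, 6 of 8 were lower and 1 higher, beside 9.35% and 26.3%. *Ackr3* was the exception, with log2 ratios of 0.88 and 3.13. Some of these differences fell under 2-fold with other processing. Against set 2, *Cxcl10* was -0.88 with no integration and *Cx3cl1* -0.83 after thinning. Against set 3, *Cxcl2* was -0.23 after thinning and *Il11* -0.92 with at least 500 genes per cell. The lower levels were not shared by every epithelial cluster. Cluster 4, with 103 of the 123 epithelium-like cells of set 1, had *Cxcl1* at 2.91, 76.3 and 66.9 CPM in sets 1, 2 and 3, whereas cluster 3, with 14 of them, had it at 109, 78.1 and 56.1 CPM. *Cxcl2* likewise stood at 14.6, 153 and 67.1 CPM in cluster 4 and at 107, 33.8 and 14.7 CPM in cluster 3. The set 1 values of cluster 3 rest on 48 *Cxcl1* and 47 *Cxcl2* UMIs. The cluster led, like cluster 3, by *Lgals7* and *Serpinb5* held 2 cells of set 1 at resolution 1.0. It also held 2 of them without the 5% highest doublet scores. Without those scores the *Cxcl1* ratio of the whole class between sets 1 and 2 was -4.11. Between sets 3 and 2, 0 of 8 members were higher and 2 lower, *Cxcl2* (-1.32) and *Ackr3* (-2.26), beside 8.15% and 9.79%. The early-response list moved with the sets as well, summing to 12970.2, 8032 and 14176 CPM in fibroblast-like cells and to 10729.8, 5413 and 6076 CPM in epithelium-like cells of sets 1, 2 and 3. The make-up of the classes and the depth differed between sets as given above, and the part of each in the differences was not tested.

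For each member the rows with the most similar levels were sought over 34 points, each a class in a set with at least 20 cells, by Pearson's correlation of log levels among 7175 rows. The points share libraries and depth, so the coefficients are descriptions. *Cxcl12* followed extracellular and secreted stromal genes, *Nbl1* (r = 0.93), *Rspo3* (0.92) and *Col6a1* (0.92). *Il1b* followed leukocyte genes, *Plbd1* (0.99), *Clec4a2* (0.97) and *Cd53* (0.97). *Cxcl1* was most like *Nfkb1* (0.83), *Procr* (0.82) and *Rap1b* (0.77), and *Cxcl2* most like *Nfkbib* (0.81), *Relb* (0.78) and *Zc3h12a* (0.77), of which *Nfkb1* and *Relb* encode NF-κB subunits. *Il6* was most like *Adamts4* (0.83), *Tgoln1* (0.81) and *Procr* (0.80), and *Il11* most like *Lrig1* (0.81), *Gm15614* (0.80) and *Il15ra* (0.79). *Ackr3* was most like *Ckap4* (0.86), *Cxcl10* most like *Fgl2* (0.78), and *Cx3cl1* most like *Dennd2c* (0.78). Among the members the closest pairs were *Cxcl1* with *Cxcl10* and with *Il6* (both 0.69), *Cxcl2* with *Il1b* (0.68) and *Il6* with *Il11* (0.67).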

How the data were processed

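The deposited table holds, per the file headers and its values, natural log values of UMIs per 10000 in each cell (the natural log of 1 plus the scaled count). The authors made UMI counts with Cell Ranger 3.1.0, as the submitters' processing notes list it, against mm10 and normalized them in Seurat. Whole UMIs were recovered per cell, and all 11120281 values above 0 came out whole within 0.05. Of 9784 rows 9781 were kept, which hold 49.4% to 52.7% of each set's UMIs, since the table was held here in part. The labels name a later version of the kit than the study's methods.

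Cells with under 200 genes were left out. Cells were integrated over barcode sets and clustered in Seurat 5.3.0 (R 4.3.3; 2000 features without the members and EGFP, 20 dimensions, 30 components, resolution 0.5). Clusters were named from marker lists; the scoring of the markers and the 1.5-fold rule for fibroblast types were set after clustering, and clusters 6, 9 and 12 stayed unnamed. Scrublet (scanpy 1.11.5) called 3, 0 and 0 doublets, and no cell was removed. Whether its scores find the doublets of these data was not tested, and they served for an alternative alone. Counts were summed per class and set in Python 3.11.15 (numpy 2.4.6, scipy 1.17.1, pandas 2.3.3). CPM intervals are exact Poisson, shares exact binomial (Clopper-Pearson), and ratios come from the exact binomial split of the UMIs of 2 classes, all at 95% and for counting error only. For counts of members and genes a class at 0 to 2 UMIs was set to a floor of 3, with no ratio where the floor turned its direction. A ratio printed for a class at 0 UMIs is that against the floor, and one printed for a class at 1 or 2 UMIs is that of the UMIs as counted. Thinned shares leave out cells under 900 UMIs. Genes with at least 10 UMIs in both classes together and a 2-fold ratio were counted. No p-value was computed because each group had 1 library. Steps were tested on simulated data. The members and lists were chosen with earlier results of these data known. All members are named, as are the 3 rows most like each, and pathway genes by list. RefSeq names matched 9272 rows (94.8%).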

Additional observations from a re-analysis of the deposited data

Results flagged for a closer look

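The 97 cells of set 3 with under 200 detected genes, which entered no comparison, held 56904 UMIs and among them transcripts of 6 of the 9 genes. There were 37 UMIs of *Cxcl1*, 45 of *Cxcl10*, 14 of *Cxcl12*, 9 of *Il6* and 4 of *Il11*, each more than 3 UMIs, the limit set by a count of 0, and 2 of *Cxcl2*. These correspond to 650.2, 791, 246, 158 and 70.3 CPM for the first 5. *Cx3cl1*, *Ackr3* and *Il1b* had 0.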

How the results depend on the processing

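Of 1402 recomputed member values, 1082 stayed within the counting interval of the reported value, 316 moved beyond it, and 4 values of at least 2-fold reversed. The reversals were *Cxcl2* between fibroblast-like and epithelium-like cells of set 1 (-0.44) and *Cxcl10* between the fibroblast types of set 1 (1.46) when cells were classed one by one, and *Cxcl10* (1.09) and *Il11* (0.17) between the fibroblast types of set 2 with at least 500 genes per cell. In all, 25 of 135 ratios had the other sign under at least 1 alternative, 21 of them under 2-fold as reported, among them *Il6* (-0.46 to 2.81) and *Cxcl2* (-0.49 to 1.85) between the fibroblast types of set 2 with at least 500 genes. The counts of members over the 3 sets that moved by over 1.5 times were mostly those of the fibroblast types. Higher in Dpt-Lum cells were 3 as reported, and 8 at resolution 1.0, 9 with at least 500 genes, 6 with cells classed one by one and 1 after thinning. Lower were 6 as reported, and 3 at resolution 1.0, 2 with at least 500 genes, 2 with cells classed one by one and 10 by the mean over cells. Lower in leukocyte-like cells were 5 as reported, and 3 with at least 500 genes, 9 by the mean over cells, 9 with a floor of 1 UMI and 8 without the cell with most UMIs. Lower in pericyte-like cells were 5 as reported and 2 after thinning. Higher in pericyte-like cells were 2, 4 and 1 in sets 1, 2 and 3 as reported. The 4 found with no integration cover sets 2 and 3 alone, so they are not set against the count over all sets. With all UMIs the share of cells with *Cxcl1* that had *Cxcl2* in set 1 was 27.3% (5.26% as reported), and the share with *Il6* in set 3 was 17.7% (13.5%). The causes were not tested. Counts between fibroblast-like and epithelium-like cells, 19 higher and 3 lower, ranged from 15 to 19 and from 2 to 4. Counting clusters 6 and 12 in a named class was chosen after seeing the data. With no integration no Tcf21-Col15a1 type and no pericyte-like cells of set 1 were found, so those comparisons have no value. No paired analysis was possible because only 1 library stood for each age. Depth limits members with few UMIs and the 12 and 28 pericyte-like cells of sets 1 and 2.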
